A study of Mus musculus with 10 samples.

Results

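The genes described here are 10 imprinted genes that act on growth, namely Peg3, Plagl1, H19, Igf2, Igf2r, Mest, Grb10, Dlk1, Ndn and Cdkn1c. They were taken by name from the probe sets that the platform annotation pairs with 1 gene symbol. Of the 10 genes, 9 had such a probe set, out of 18193 genes on the array, and they were read by 27 probe sets. The annotation gives the H19 probe set 2 symbols, that of H19 and that of a microRNA gene within it, so H19 was not analysed here. Where a gene had several probe sets, the one that was brightest on average stood for it, and the others are given beside it.

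The series used 10 oligonucleotide arrays of cultured mouse cells to ask what Med23, a subunit of the Mediator complex, does when cells choose between a smooth muscle and a fat cell fate. Med23 knockout (KO) embryonic fibroblasts (MEFs) gave 3 arrays, 1 without serum (0 min) and 1 each after serum for 30 min and for 90 min. The 10T1/2 cells, an established fibroblast line of mouse embryos, gave 4 arrays: MAL overexpression together with Med23 knockdown, the knockdown alone, MAL alone, and no treatment. MAL is an actin-responsive coactivator of the serum response factor SRF. Wild-type (WT) MEFs gave 3 arrays at the same serum times as the KO cells. The MEFs came from day 9.5 embryos and had immortalised on their own in culture. The labels tell of no second line of either genotype, so a difference between the genotypes and a difference between 2 lines cannot be told apart. They do not say how the knockdown was made.

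Each condition had 1 array. Where a mean ± SD is given for MEFs, it runs over the 3 serum times of a genotype, and these are not replicates. Levels are log2 signals as deposited. The median of all probe sets lay between 3.86 and 3.93 on the MEF arrays and between 3.64 and 3.70 on the arrays of 10T1/2 cells. The files used here hold no detection calls, so a level below its array's median is described as low and its true size is unknown. Med23 itself read 2.91 to 3.30 in KO MEFs, against 6.90 to 7.39 in WT MEFs, and 3.94 and 4.24 with the knockdown, against 5.45 and 5.67 without it. Of 11 fibroblast markers, 10 lay above the median on every KO array and 10 on every WT array, where Thy1 was low, and 11 on every array of 10T1/2 cells. Skeletal muscle precursor markers were low for 5 of 6 genes in each of the 3 lines, Myod1 among them. Trophoblast and yolk sac markers were low on every array for 8 of 9 genes in KO MEFs, 6 of 9 in 10T1/2 cells and 7 of 9 in WT MEFs, with Cdx2 and Elf5 low throughout. The summed level of 6 neural markers was 27.9 to 28.7 in KO MEFs, 26.2 to 28.5 in 10T1/2 cells and 33.6 to 35.6 in WT MEFs. Sox2 read 7.61 to 9.11 in WT MEFs and was low in the other 2 lines. Nes was also higher in WT than in KO MEFs (6.97 to 7.97 against 5.97 to 6.31). Map2 was lower (6.97 to 7.58 against 7.67 to 8.47), and the Sox10 levels overlapped. Pax6 and Tubb3 were low in both MEF lines. The summed levels of the 6 markers thus did not overlap between the MEF lines, but the markers did not all differ in 1 direction. The part of these marker differences in the results below was not tested.

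An imprinted gene is transcribed mainly from the copy inherited from 1 parent, under DNA methylation set in the germ line, and imprinted genes lie in clusters that share control elements. Many genes active on the paternal copy promote fetal and placental growth, while many active on the maternal copy restrain it. Most are strongly expressed in the embryo and are turned down after birth. Among the genes here, Peg3, Mest, Plagl1, Igf2, Dlk1 and Ndn are paternally expressed, and H19, Igf2r and Cdkn1c maternally. Grb10 is maternally expressed in most tissues and paternally in neurons. The arrays read total RNA and do not separate the parental copies.

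Promoter sequences were taken from RefSeq (GRCm38.p6), from 250 bases before to 50 bases after each annotated start. Of the 10 genes, 8 matched, with 14 promoters in all. A promoter of each of 5 genes with a large difference between the lines is shown (Peg3, Mest, Plagl1, Grb10 and Ndn), with that of Igf2 that holds a CArG box, the site bound by SRF. Capitals mark motifs found on either strand, namely GGGGCCCC (the core reported for the PLAGL1 protein), CCATNTT (the core of sites for YY1, a factor that binds the Peg3 region) and the CArG box.
Peg3 promoter, chr7:6730370-6730669, minus strand, 5′ to 3′: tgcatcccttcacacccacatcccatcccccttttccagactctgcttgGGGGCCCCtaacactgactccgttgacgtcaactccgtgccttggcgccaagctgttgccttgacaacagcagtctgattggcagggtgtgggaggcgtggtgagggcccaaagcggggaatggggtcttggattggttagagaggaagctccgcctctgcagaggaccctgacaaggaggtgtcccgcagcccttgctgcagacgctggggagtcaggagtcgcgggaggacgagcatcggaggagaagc
Mest promoter, chr6:30737800-30738099, plus strand, 5′ to 3′: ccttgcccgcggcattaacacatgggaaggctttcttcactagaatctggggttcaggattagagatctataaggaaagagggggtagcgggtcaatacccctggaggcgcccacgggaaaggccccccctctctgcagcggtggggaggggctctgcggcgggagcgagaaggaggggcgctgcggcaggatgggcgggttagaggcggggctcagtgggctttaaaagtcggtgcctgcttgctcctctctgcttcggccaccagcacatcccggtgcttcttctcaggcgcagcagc
Plagl1 promoter, chr10:13090582-13090881, plus strand, 5′ to 3′: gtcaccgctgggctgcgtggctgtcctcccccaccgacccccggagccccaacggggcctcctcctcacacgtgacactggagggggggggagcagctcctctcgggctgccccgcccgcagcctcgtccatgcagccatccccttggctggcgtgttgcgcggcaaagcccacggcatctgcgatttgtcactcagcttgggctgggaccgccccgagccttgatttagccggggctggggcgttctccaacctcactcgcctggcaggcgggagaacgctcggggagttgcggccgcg
Grb10 promoter, chr11:12037371-12037670, minus strand, 5′ to 3′: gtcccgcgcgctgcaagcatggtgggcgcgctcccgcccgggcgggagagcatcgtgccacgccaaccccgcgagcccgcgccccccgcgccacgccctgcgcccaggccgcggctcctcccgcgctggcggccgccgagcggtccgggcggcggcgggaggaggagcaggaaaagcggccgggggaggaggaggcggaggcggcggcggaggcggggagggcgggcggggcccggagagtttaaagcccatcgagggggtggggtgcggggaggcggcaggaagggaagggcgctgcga
Ndn promoter, chr7:62348027-62348326, plus strand, 5′ to 3′: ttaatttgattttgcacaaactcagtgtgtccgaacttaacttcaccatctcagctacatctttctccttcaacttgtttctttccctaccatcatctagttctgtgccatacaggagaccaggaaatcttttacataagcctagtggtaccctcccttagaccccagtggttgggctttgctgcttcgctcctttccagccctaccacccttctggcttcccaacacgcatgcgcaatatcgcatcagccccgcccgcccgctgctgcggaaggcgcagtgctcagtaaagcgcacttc
Igf2 promoter, chr7:142661222-142661521, minus strand, 5′ to 3′: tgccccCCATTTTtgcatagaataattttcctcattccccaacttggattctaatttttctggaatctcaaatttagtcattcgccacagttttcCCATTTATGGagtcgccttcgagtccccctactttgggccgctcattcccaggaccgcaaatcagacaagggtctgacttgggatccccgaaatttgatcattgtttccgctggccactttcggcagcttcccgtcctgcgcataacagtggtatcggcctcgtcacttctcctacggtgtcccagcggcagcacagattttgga
The PLAGL1 core stood in 1 of the 14 promoters, that of Peg3, and in 1.08% of the 32851 promoters of the table. The YY1 core stood in 2 of the 14, in Igf2 and in the promoter of Grb10 at the second start, which is not shown, and in 16.1% of all. A CArG box stood in 1 of the 14, in Igf2, and in 1.63% of all. The YY1 core and the CArG box of the Igf2 promoter do not overlap. These matches describe the letters of the windows and no binding. The promoters also differed in CpG content, from 2 CpG in the first promoter of Igf2 to 45 in the promoter of Grb10 shown above, which had more than 98.1% of all promoters. Peg3 had 13, the shown promoter of Mest 17, Plagl1 26 and Ndn 11, where the median over the table was 7.

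**Figure D1:**
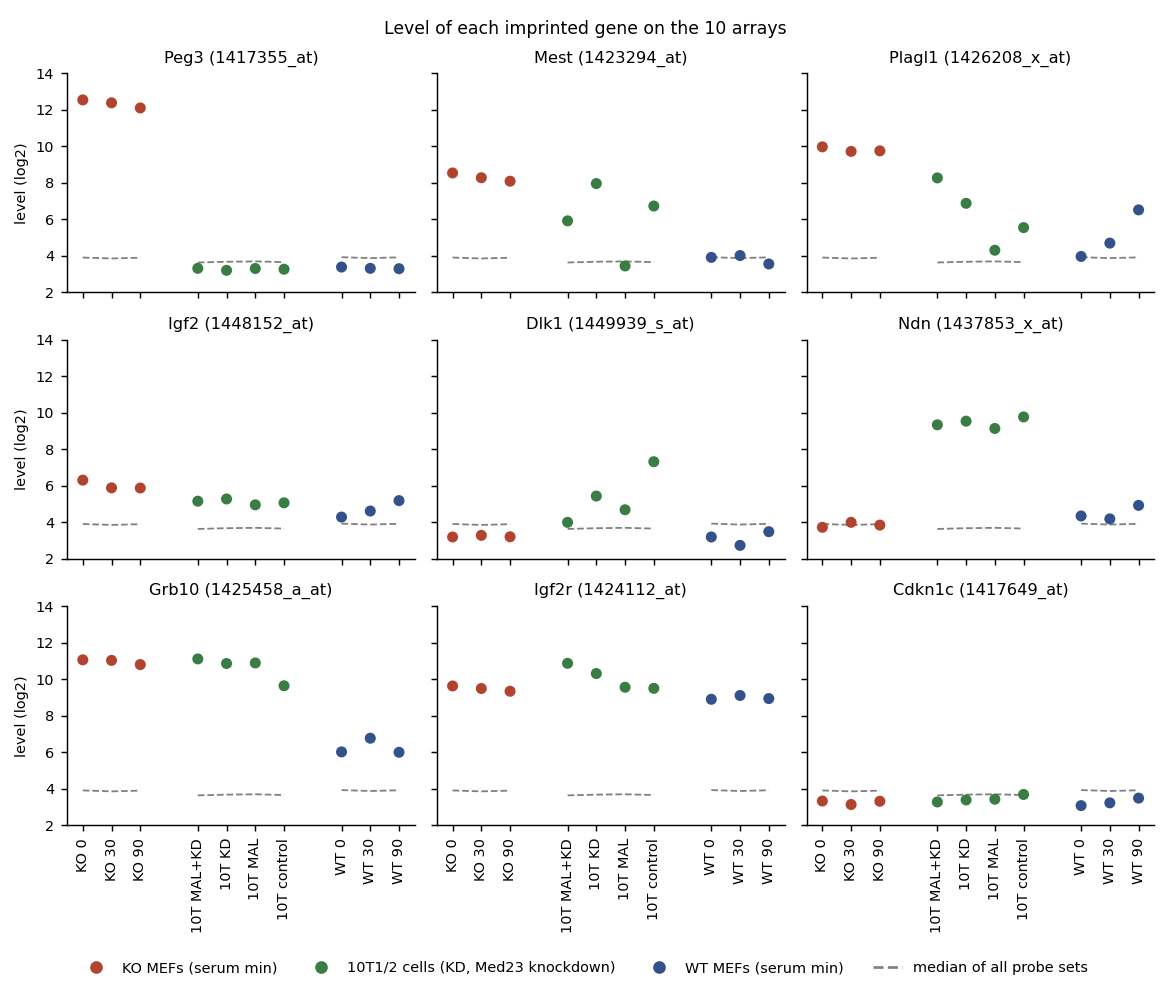
Level (log2) of each of the 9 measured genes on the 10 arrays, with 1 point per array, for KO MEFs, 10T1/2 cells and WT MEFs; the dashed line is the median of all probe sets on each array. Peg3 was above the line only in KO MEFs (12.10 to 12.54), Dlk1 and Ndn were highest in 10T1/2 cells, and Igf2r was high on all 10 arrays.

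The 3 lines held different sets of these genes. KO MEFs had high levels of Peg3, Plagl1, Mest, Grb10 and Igf2r, 10T1/2 cells had Ndn, Grb10, Igf2r and, depending on treatment, Mest, Dlk1 and Plagl1, and WT MEFs had only Igf2r above 8 on the log2 scale. Cdkn1c, which encodes the cyclin-dependent kinase inhibitor p57, lay between 3.08 and 3.69 on all arrays and was above the array median only in untreated 10T1/2 cells. The comparison of KO with WT MEFs used limma with serum time in the model. A gene was tested where its highest MEF level exceeded 3.90, the median of all probe sets there. This held for 7 of the 9 genes, while Dlk1 and Cdkn1c were low on every MEF array. Peg3 passed this filter only through the KO arrays. Of the 7 genes, 6 were higher in KO and 1 was lower (Benjamini-Hochberg adjusted p under 0.05). Over all genes tested, 42.1% were called in that comparison, 21.2% higher and 20.8% lower. Without the filter 7 of 9 genes were called, against 27.3% of all genes. The median coefficient of the 7 genes was 4.47, against -0.02 over all genes tested. In such bulk samples, fewer cells that express a gene and less RNA per cell cannot be told apart.

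Peg3 encodes a zinc finger protein that acts in growth, stem cells and maternal behaviour. Probe set 1417355_at read 12.54, 12.38 and 12.10 in KO MEFs at 0, 30 and 90 min, 3.32, 3.21, 3.31 and 3.27 in 10T1/2 cells with both treatments, the knockdown, MAL and no treatment, and 3.39, 3.32 and 3.30 in WT MEFs. The KO arrays stood at percentiles 99.3 to 99.5 of all probe sets, and the other 7 arrays were all below their medians. The KO coefficient was 9.0 (SE 0.13, n = 3 pairs of arrays, adjusted p = 3.19e-06 by limma). With the low WT levels raised to the array medians the difference was at least 345-fold. Probe sets 1433924_at and 1417356_at showed the same split, with KO means of 12.01 and 10.28, against WT means of 3.03 and 3.34. Probe sets 1447731_at and 1447732_x_at stayed between 2.18 and 3.02 on all arrays. Between 10T1/2 cells and WT MEFs, both low, the Peg3 coefficient was -0.21 in the fit over all 10 arrays (SE 0.20, adjusted p = 0.373).

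Mest encodes a hydrolase-like protein that promotes growth and fat cell enlargement. It read 8.54, 8.28 and 8.09 in KO MEFs, against 3.92, 4.02 and 3.56 in WT MEFs. The genotypes did not overlap, and 2 of the 3 WT levels were below the array median. The KO coefficient was 4.47 (SE 0.13, adjusted p = 7.6e-06), at least 20.3-fold. In 10T1/2 cells Mest covered nearly the same span within 1 line, with 5.92 under both treatments, 7.96 with the knockdown, 3.45 with MAL and 6.73 in untreated cells. Only the MAL array was below the median. The fitted difference between untreated 10T1/2 cells and WT MEFs at 0 min was 2.42 (SE 0.33, 5.37-fold, adjusted p = 0.000445), but in a fit with 2 plain groups it did not pass (2.18, SE 0.88, adjusted p = 0.0687). The gene had 1 probe set.

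Plagl1, also called Zac1, encodes a zinc finger transcription factor that regulates other imprinted genes. Probe set 1426208_x_at read 9.97, 9.72 and 9.75 in KO MEFs, against 3.97, 4.70 and 6.52 in WT MEFs. All KO levels exceeded all WT levels, while the WT levels differed among themselves by 2.55 between 90 and 0 min. The KO coefficient was 4.75 (SE 0.48, 26.9-fold, adjusted p = 0.000664). The suffix _x_at marks probe sets with probes that may also match other sequences, and the other probe sets of the gene moved less. Probe set 1450533_a_at read 5.04, 4.92 and 5.04 in KO MEFs, against 4.44, 3.98 and 4.26 in WT MEFs, with a coefficient of 0.77 (SE 0.14, adjusted p = 0.0067 over all probe sets). Probe set 1438588_at was low on every MEF array. Between 10T1/2 cells and WT MEFs the probe sets also disagreed, with 0.30 (SE 0.84, adjusted p = 0.773) for the first and -1.36 (SE 0.20, adjusted p = 0.000659) for 1450533_a_at, which lay below the median on all 4 arrays of 10T1/2 cells.

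Igf2 encodes the fetal insulin-like growth factor 2. Probe set 1448152_at read 6.31, 5.89 and 5.88 in KO MEFs, 5.16, 5.28, 4.96 and 5.07 in 10T1/2 cells with both treatments, the knockdown, MAL and no treatment, and 4.29, 4.62 and 5.19 in WT MEFs. The KO levels were above all others, at the 69.1 to 73.2 percentile of their arrays, which is far from the top of the range. The coefficient was 1.33 (SE 0.25, 2.51-fold, adjusted p = 0.00751), with adjusted p = 0.0672 when the 30 min arrays were left out. The second probe set, 1415931_at, was low on all 10 arrays, between 2.67 and 3.35. 10T1/2 cells had a coefficient of 0.44 against WT MEFs (SE 0.34, adjusted p = 0.286).

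Dlk1, the gene of the transmembrane protein Pref-1 that holds back fat cell differentiation, was low in both genotypes of MEFs. Probe set 1449939_s_at read 3.20, 3.29 and 3.21 in KO MEFs, 4.0, 5.44, 4.69 and 7.32 in 10T1/2 cells with both treatments, the knockdown, MAL and no treatment, and 3.20, 2.74 and 3.49 in WT MEFs. All 4 arrays of 10T1/2 cells exceeded all 6 MEF arrays, and the untreated cells had the highest level. The difference between 10T1/2 cells and WT MEFs was 3.87 (SE 0.36, adjusted p = 8.08e-05), and the untreated array stood at least 10.5-fold above the WT array at 0 min with the WT level raised to its array's median. In the fit with 2 plain groups, which compares means over the treatments, it was 2.22 (SE 0.68, adjusted p = 0.0258). Dlk1 passed the filter of both fits only through the arrays of 10T1/2 cells. A further probe set, 1442724_at, was at or below the medians on all arrays.

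Ndn encodes necdin, a growth suppressor of the MAGE family that is known from neurons and mesenchymal precursors. Probe set 1437853_x_at read 3.73, 4.0 and 3.85 in KO MEFs, 9.34, 9.54, 9.14 and 9.77 in 10T1/2 cells with both treatments, the knockdown, MAL and no treatment, and 4.35, 4.19 and 4.93 in WT MEFs. The 10T1/2 cells stood apart from both MEF lines on every array, with a coefficient against WT MEFs of 5.31 (SE 0.28, 39.6-fold, adjusted p = 8.24e-06). Of the 8 probe sets of Ndn, 5 split the lines in this way, with coefficients from 5.31 to 6.69, and 3 were low on every array. Apart from 1437853_x_at, the probe sets that split the lines passed the filter only through the arrays of 10T1/2 cells. The KO coefficient of -0.63 in MEFs (SE 0.19, adjusted p = 0.0385) rested on levels near the array medians. It was lost without the arrays of 0, 30 or 90 min, with adjusted p = 0.153, 0.0525 and 0.114. The other Ndn probe sets were low on every MEF array and were not tested there.

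Grb10 encodes an adaptor that damps signalling from the insulin and IGF1 receptors and limits growth. Probe set 1425458_a_at read 11.06, 11.03 and 10.80 in KO MEFs, 11.11, 10.86, 10.89 and 9.64 in 10T1/2 cells with both treatments, the knockdown, MAL and no treatment, and 6.02, 6.77 and 6.0 in WT MEFs. In this probe set KO MEFs and 10T1/2 cells overlapped, and the WT cells were lower than both on every array. In 1425457_a_at and 1430164_a_at KO MEFs lay above 10T1/2 cells, with 8.22 to 8.42 against 4.91 to 5.52 and 7.11 to 7.66 against 4.41 to 5.55. The coefficient was 4.70 for KO against WT MEFs (SE 0.18, 26-fold, adjusted p = 1.59e-05) and 3.70 for 10T1/2 cells against WT MEFs (SE 0.33, 13-fold, adjusted p = 6.66e-05). The other 2 probe sets gave 4.44 and 3.59 for KO against WT, but only 1.13 and 0.93 for 10T1/2 cells against WT, all past the threshold over all probe sets (adjusted p from 1.88e-05 to 0.0356).

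Igf2r encodes the receptor that carries IGF2 to lysosomes for breakdown and also sorts lysosomal enzymes. Probe set 1424112_at read 9.63, 9.49 and 9.34 in KO MEFs, 10.87, 10.31, 9.56 and 9.50 in 10T1/2 cells with both treatments, the knockdown, MAL and no treatment, and 8.90, 9.11 and 8.94 in WT MEFs. It was among the brighter probe sets on every array, at percentiles 92.5 to 97.7. The KO coefficient was 0.50 (SE 0.14, 1.42-fold, adjusted p = 0.027), and did not pass when the arrays of 0 min (adjusted p = 0.197) or of 30 min (0.104) were dropped, or with no term for serum time (0.0518). The probe set 1424111_at gave 0.53 (SE 0.16, adjusted p = 0.0451). Between 10T1/2 cells and WT MEFs the 2 probe sets had opposite signs, 0.36 and -0.62, and neither passed (adjusted p = 0.193 and 0.051). In the fit with 2 plain groups, probe set 1424112_at passed (1.08, adjusted p = 0.0281).

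**Figure D2:**
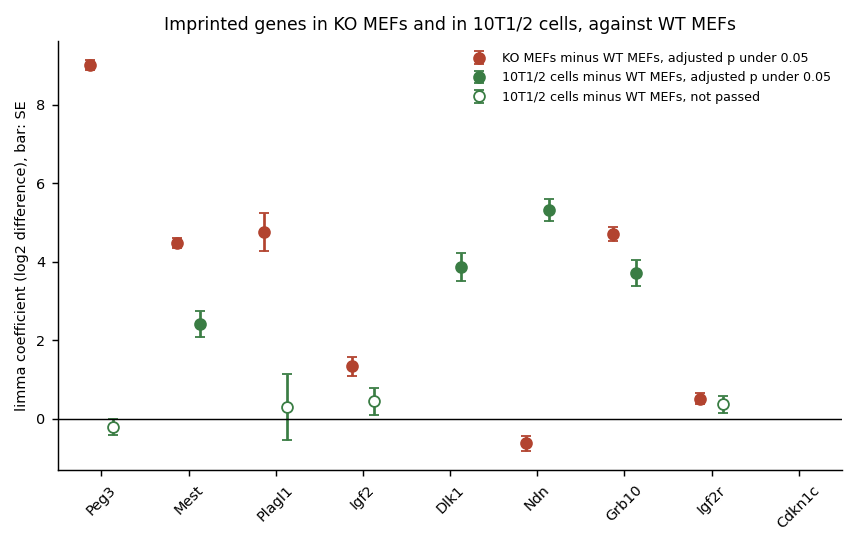
Coefficients (log2 difference) with SE from limma for KO MEFs minus WT MEFs and 10T1/2 cells minus WT MEFs; filled points passed adjusted p under 0.05 and open points did not. Grb10 and Mest were higher in both contrasts, which share the WT arrays. Peg3 and Plagl1 passed for KO MEFs and not for 10T1/2 cells, and Dlk1 and Ndn had their large coefficients in 10T1/2 cells.

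For 10T1/2 cells against WT MEFs the fit over all 10 arrays tested 8 of the 9 genes and called 4, all higher: Ndn, Dlk1, Grb10 and Mest. Of all genes tested, 62.6% were called in that comparison, 36.3% higher and 26.3% lower. The share of 4 in 8 was below that of all calls and above that of genes called higher. Peg3 was among the 8 only through the KO arrays and was low in both compared groups. The sources used here do not say if MEF and 10T1/2 arrays were normalized as 1 set. KO and 10T1/2 cells were both set against the same WT arrays.

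**Figure D3:**
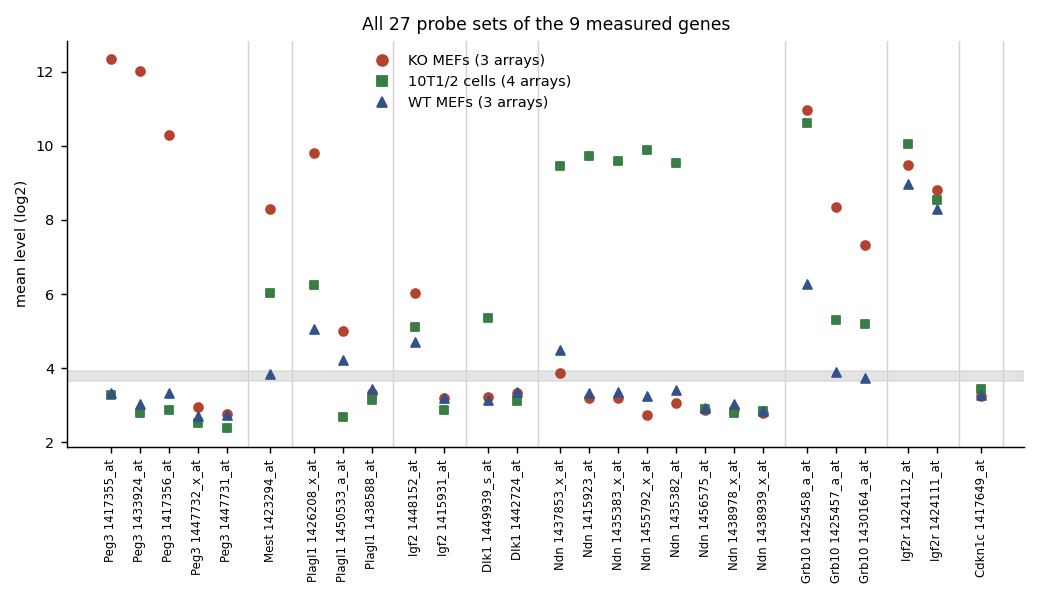
Mean level (log2) of each of the 27 probe sets in KO MEFs, 10T1/2 cells and WT MEFs; the grey band spans the array medians. For Peg3 3 of 5 probe sets stood high in KO MEFs, and for Ndn 5 of 8 stood high in 10T1/2 cells (means of 9.45 to 9.89), while their other probe sets stayed low in all 3 lines.

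Serum gave no call among the 7 tested genes in MEFs. At 30 min against 0 min, limma called 0 of 7, where 0.251% of all genes were called, and at an unadjusted p under 0.05 there were 0 of 7, against 7.99% of all genes. At 90 min it called 0 of 7, where 13.5% of all genes were called, 4.56% higher and 8.95% lower. At an unadjusted p under 0.05 there was 1 of 7 (Mest), against 31% of all genes. The coefficients at 90 min ran from -0.41 for Mest (SE 0.16, adjusted p = 0.156) to 1.17 for Plagl1 (SE 0.58, adjusted p = 0.23). The Plagl1 value, from 1426208_x_at, joined unlike parts, a difference of -0.22 between 90 and 0 min in KO MEFs and of 2.55 in WT MEFs. The same differences were 0.00 and -0.18 for 1450533_a_at, and -0.05 and 0.38 for 1438588_at, which was low. The KO minus WT difference at 0, 30 and 90 min was 0.60, 0.94 and 0.78 for 1450533_a_at. For 1426208_x_at it was 6.0, 5.02 and 3.23. Igf2 had the same order, with 2.02, 1.27 and 0.69, from differences between 90 and 0 min of -0.43 in KO MEFs and 0.90 in WT MEFs. With 1 array per condition these differences of response were not tested. The KO minus WT difference stayed within 8.80 to 9.15 for Peg3, 4.26 to 4.62 for Mest and 4.26 to 5.04 for Grb10 over the 3 times.

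The KO effect in MEFs and the knockdown effect in 10T1/2 cells were compared in the fit over all 10 arrays, which called 4 of 8 genes and 29.3% of all genes. In 10T1/2 cells, knockdown of Med23 went with higher Plagl1, Mest and Igf2r and lower Dlk1 in both pairs of arrays, but limma called 0 of the 8 tested genes and 0% of all genes, with 1 residual degree of freedom. At an unadjusted p under 0.05 there were 4 of 8 genes, and 31.9% of all genes. Plagl1 read 8.27 with both treatments and 6.88 with the knockdown alone, against 4.31 with MAL and 5.55 without treatment, a coefficient of 2.65 (SE 0.63, n = 2 pairs, adjusted p = 0.0873). The single differences were 3.96 with MAL and 1.33 without it. The other Plagl1 probe sets, both low in these cells, had -0.28 and -0.41 (1450533_a_at) and -0.27 and -0.31 (1438588_at) in the same order. Mest had a knockdown coefficient of 1.85 (SE 0.34, adjusted p = 0.0722), made of 2.47 with MAL and 1.23 without. Igf2r had 1.06 (SE 0.21, adjusted p = 0.0768), from 1.31 and 0.81 in the same order, and its second probe set gave 1.29 and 0.98. Dlk1 had -1.28 (SE 0.33, adjusted p = 0.0929), from -0.69 and -1.88. Grb10 differed by 0.22 with MAL and by 1.22 without it, while Peg3, Igf2, Ndn and Cdkn1c differed by 0.30 or less in either pair. The 4 genes with the lowest p passed after quantile normalization (19.9% of all genes called) and in the fit over all 10 arrays (20.4%). Mest and Igf2r also passed with an intensity trend (4.82%). None of the 4 passed without the filter or over all probe sets.

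MAL went with lower Mest and lower Dlk1. Mest read 5.92 with both treatments and 3.45 with MAL alone, against 7.96 with the knockdown and 6.73 without treatment, so both MAL levels lay below both others. Its MAL coefficient was -2.66 (SE 0.34, n = 2 pairs, 6.32-fold lower, adjusted p = 0.0658). Dlk1 read 4.0 and 4.69 on the arrays with MAL, against 5.44 and 7.32 on those without, a coefficient of -2.04 (SE 0.33, 4.1-fold lower, adjusted p = 0.0688). Neither passed, limma called 0 of the 8 genes, and 0.0643% of all genes were called. At an unadjusted p under 0.05 there were 2 of 8 genes, and 27.6% of all genes. Both genes passed after quantile normalization (16.2% of all genes called), with an intensity trend (4.36%) and in the fit over all 10 arrays (17.2%). Neither passed without the filter or over all probe sets. Plagl1 moved in opposite directions by treatment background, with 1.39 where MAL was added to the knockdown and -1.24 where it was added to untreated cells, and its coefficient was 0.07 (SE 0.63, adjusted p = 0.957). The MAL differences of its low probe sets were -0.20 and -0.33 (1450533_a_at) and -0.19 and -0.23 (1438588_at). Grb10 had 0.25 with the knockdown and 1.25 without. With 1 array per condition the non-additive parts were not tested.

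**Figure D4:**
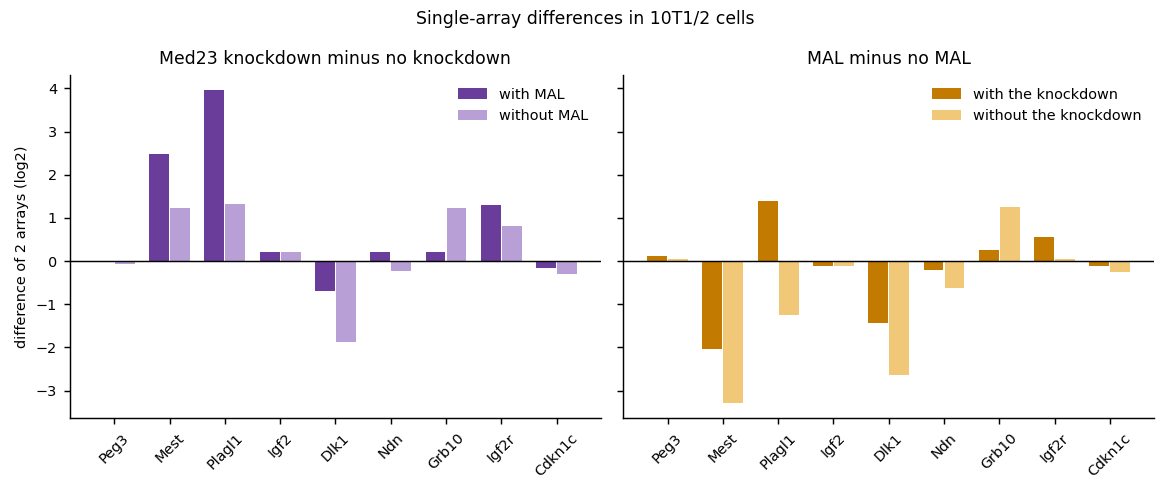
Differences (log2) between 2 arrays of 10T1/2 cells for the 9 genes, for the knockdown with and without MAL (left) and for MAL with and without the knockdown (right). Plagl1 had the largest knockdown difference (3.96, with MAL), Mest and Dlk1 were lower with MAL in both pairs, and Plagl1 changed sign between the MAL pairs.

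Imprinted neighbours of these genes were drawn from a list of other imprinted genes. There were 24 with a probe set, each on the chromosome of its partner, and 7 of them were low on all 10 arrays. In the Peg3 domain, Usp29, which shares a promoter region with Peg3, was low throughout (3.47, 3.78 and 3.77 in KO MEFs against 3.54, 3.50 and 3.50 in WT MEFs). Zim1, the maternally expressed zinc finger gene beside Peg3, was 0.73 higher in KO (adjusted p = 0.0186), with a KO mean of 3.99 near the array median. Zim1 passed the filter only through KO arrays and was low on all WT arrays. In the Dlk1 domain, the maternally expressed noncoding RNA genes Meg3 and Rian were found with Dlk1 in 10T1/2 cells. Meg3 read 7.59, 9.15, 6.78 and 8.44 with both treatments, the knockdown, MAL and no treatment, against 3.83, 3.83 and 3.84 in WT MEFs (coefficient 4.59, SE 0.18, adjusted p = 3.33e-06). Rian was higher by 3.55 (SE 0.20, adjusted p = 1.12e-05), with 6.08 to 7.13 in 10T1/2 cells, and passed the filter only through those arrays. Mirg, also of that domain, was not found with them. It read 3.13 to 3.73 in 10T1/2 cells, against 3.28 to 3.50 in WT MEFs, and was not tested between them. With the knockdown alone, Meg3 read 9.15 against 8.44 in untreated cells, while Dlk1 read 5.44 against 7.32. Neither knockdown coefficient passed (0.76, adjusted p = 0.0893, for Meg3).

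Around Ndn, the protein-coding neighbour Magel2 was low on all 10 arrays, and Peg12 was higher in 10T1/2 cells than in WT MEFs by 1.12 (adjusted p = 0.00138), a gene that passed the filter only through the arrays of 10T1/2 cells. Ube3a, the ubiquitin ligase gene of that domain, was lower in 10T1/2 cells (-1.27, adjusted p = 0.00144), and Atp10a was higher (1.04, adjusted p = 0.0495). The Atp10a levels overlapped, with 4.78 to 5.89 in 10T1/2 cells and 4.45 to 5.21 in WT MEFs. Mkrn3 (-0.13, adjusted p = 0.635) and Snrpn (0.26, adjusted p = 0.289) did not pass. Copg2, which overlaps the Mest region, was higher in KO by 0.71 (adjusted p = 0.00488), and its coefficient between 10T1/2 cells and WT MEFs was -1.20 (adjusted p = 0.00806), where that of Mest was 2.42. Only the untreated array of 10T1/2 cells was far lower in Copg2 (5.74). With both treatments, the knockdown and MAL it read 7.14, 6.71 and 7.27, against 6.81 to 7.22 in WT MEFs. Airn, the noncoding RNA that silences the paternal Igf2r copy, had means of 5.12 in KO MEFs and 5.14 in WT MEFs. Kcnq1ot1, the noncoding RNA of the Cdkn1c domain, had means of 6.35 and 6.34 in the same order, and was lower in 10T1/2 cells than in WT MEFs (-2.25, SE 0.25, adjusted p = 0.00016). In the same domain Tssc4 was higher in 10T1/2 cells (2.40, adjusted p = 0.000154), and so was Kcnq1 (0.56, adjusted p = 0.0278), which passed the filter only through those cells. Ddc, beside Grb10, was low on every array.

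**Figure D5:**
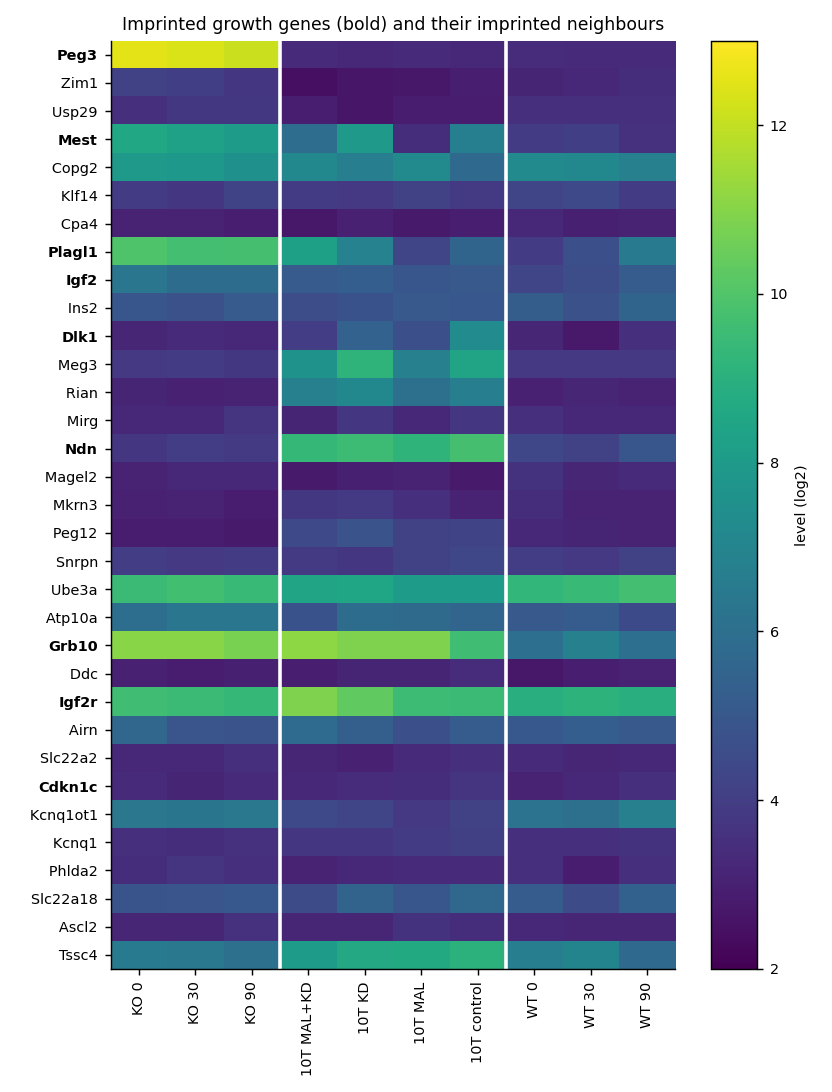
Level (log2, colour) of the 9 genes (bold) and their 24 imprinted neighbours in KO MEFs, 10T1/2 cells and WT MEFs, 1 column per array. Usp29 and Zim1 did not share the high level of Peg3 in KO MEFs. Meg3 and Rian, but not Mirg, stood above their MEF levels in 10T1/2 cells, as Dlk1 did.

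Over the whole list of other imprinted genes, 41 of 49 had a probe set and 23 were tested in MEFs, of which 6 were higher and 5 lower in KO (47.8%, against 42.1% of all genes), with a median of 0.01 against -0.02 over all genes. Sgce, the paternally expressed gene of epsilon-sarcoglycan, had the largest coefficient. It read 9.92, 9.94 and 9.85 in KO MEFs, against 3.72, 3.89 and 3.92 in WT MEFs (6.06, SE 0.13, at least 63.6-fold, adjusted p = 3.19e-06), and 8.94 to 9.88 in 10T1/2 cells. Peg10, which shares the promoter region of Sgce, was low on all 10 arrays. The amino acid transporter gene Slc38a4 was at least 22.7-fold higher in KO (4.94, SE 0.23, adjusted p = 3.02e-05), and Atp10a, a phospholipid flippase gene, was 1.30 higher (adjusted p = 0.00358). Ppp1r9a, Qpct and Gnas were lower, with coefficients of -2.12, -1.78 and -0.73 (adjusted p = 8.95e-05, 0.000646 and 0.00584). Ppp1r9a and Qpct were low on all 3 KO arrays, passed the filter only through the WT arrays, and were at least 3.34-fold and 1.61-fold lower. Ppp1r9a was low in 10T1/2 cells too, and passed the filter over all 10 arrays only through the WT arrays. Serum called 1 of 23 genes of the list at 90 min, Impact (0.79, adjusted p = 0.0305), which is 4.35% against 13.5% of all genes, and 0 at 30 min, against 0.251% of all genes. In 10T1/2 cells against WT MEFs, 9 of 27 were higher and 8 lower (63%, against 62.6% of all genes), led by Sgce (5.21), Meg3 and Rian at the top and by Ppp1r9a (-2.56), Kcnq1ot1 and Inpp5f (-1.76) at the bottom. MAL and the knockdown called 0 of 24, against 0.0643% and 0% of all genes.

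Genes of IGF signalling were also listed, since Igf2, Igf2r and Grb10 act in that pathway. In KO against WT MEFs, 2 of 15 were higher and 8 lower (66.7%, against 42.1% of all genes), with a median of -0.45. Irs1, the docking protein of the insulin and IGF1 receptors, was higher (1.72, SE 0.20, adjusted p = 0.00114), and so was Igfbp4, a gene of an IGF-binding protein (0.42, adjusted p = 0.0333). The genes of the binding proteins Igfbp3, Igfbp6 and Igfbp7 were lower, with coefficients of -5.35 (SE 0.57, at least 19.3-fold), -4.19 (SE 0.15) and -3.01 (SE 0.13), with adjusted p = 0.000835, 1.41e-05 and 2.42e-05. Igfbp3 was low on all 3 KO arrays and passed the filter only through the WT arrays. At 90 min of serum, Irs1 and the insulin receptor gene Insr were lower (-1.42 and -1.12, adjusted p = 0.0183 and 0.0255), 2 of 15 genes (13.3%, against 13.5% of all genes), and at 30 min 0 were called, against 0.251% of all genes. In 10T1/2 cells against WT MEFs 3 of 16 were higher and 7 lower (62.5%, against 62.6% of all genes). The higher genes were Igf1 (3.33, SE 0.21, adjusted p = 1.76e-05), Igfbp5 (2.84) and Igf2bp1 (0.99). Igf1 read 9.34 in untreated 10T1/2 cells but 4.27 with both treatments, against 5.70 to 6.03 in WT MEFs. Igfbp2 (-4.12), Igf1r (-3.95) and Igfbp6 (-3.86) were the lowest, and Igfbp2 was low on all 4 arrays of 10T1/2 cells. MAL and the knockdown called 0 of 15, against the same shares of all genes.

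The 6 genes that ranged over at least 3 on the log2 scale were each set beside all other genes, by the root mean square difference of levels centred on their own mean over the 10 arrays. Peg3 was closest to Cthrc1 (0.38) and Zic1 (0.85), Mest to Col23a1 (0.42) and Gli2 (0.74), and Plagl1 to Npr3 (0.69) and Armcx4 (0.82). Grb10 was closest to Gas2 (0.29) and Csgalnact1 (0.41), Dlk1 to Serping1 (0.25) and Wnt5b (0.28), and Ndn to Tbx1 (0.29) and Cnrip1 (0.34). The likeness of Col23a1 to Mest covered the treatments as well as the lines, with 8.23, 8.23 and 8.28 in KO MEFs, 5.26, 7.35, 3.8 and 7.39 in 10T1/2 cells with both treatments, the knockdown, MAL and no treatment, and 3.90, 3.39 and 3.63 in WT MEFs. Npr3 was like Plagl1 in KO MEFs (8.65, 8.55 and 8.01) and under both treatments (7.09), but not in WT MEFs after 90 min of serum (3.27).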

How the data were processed

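Total RNA of 10 cultures was labelled with biotin for Affymetrix arrays, per the labels' protocols. The deposited values were log2 expression values for 45101 probe sets, and RMA and MAS5 are named, without roles or versions, per the submitters' processing notes. Which of them made the values is not given there. Probe sets with 1 gene symbol (34945) stood for 18193 genes, 932 with several symbols were left out, and symbols were updated through Entrez identifiers to the RefSeq table of GRCm38.p6. Fits used limma 3.58.1 in R 4.3.3 (lmFit, eBayes) on genes whose highest level exceeded the median of all probe sets on the arrays of the fit (3.90 in MEFs, 3.67 in 10T1/2 cells, 3.81 over all 10), with two-sided p-values, Benjamini-Hochberg adjustment over all genes tested and a threshold of 0.05. The MEF model held genotype and serum time (2 residual degrees of freedom), the model of 10T1/2 cells held MAL and knockdown (1), and the fit over all 10 arrays held all of these and the line (3). The contrast of 10T1/2 cells with WT MEFs is that of untreated cells with WT at 0 min. The sample labels give no serum time for 10T1/2 cells, so line and serum state cannot be told apart in that contrast. The p-values measure residual spread in 1 fit, not the spread between cultures. The fits were tested on simulated data.

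Named list genes were the 3 largest coefficients in each direction past the threshold whose pairs of arrays all had 1 sign. Neighbours were taken from the list of other imprinted genes by domain. Single genes beyond these rules (Usp29, Magel2, Peg10, Airn, Ddc and Copg2 among them) were chosen after their values were seen. The genes, lists and tests were chosen with earlier results of these data known. "At least" folds raise levels below an array's median to that median. Precision is limited by the small number of arrays.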

Additional observations from a re-analysis of the deposited data

Results flagged for a closer look

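The KO effect in MEFs and the knockdown effect in 10T1/2 cells were unlike for 4 of the 8 genes tested. They were compared by the contrast of the first minus the second in the fit over all 10 arrays, where 29.3% of all genes passed. This test was added after the data were seen. For Peg3 the difference of effects was 9.03 (SE 0.21, adjusted p = 1.85e-06 by limma), from 9.0 for the KO and -0.03 for the knockdown. Peg3 entered that fit only through the KO arrays, and its knockdown effect lies between levels below the array medians. For Grb10 it was 3.98 (SE 0.35, adjusted p = 0.000255), from 4.70 and 0.72. Mest had 2.62 (SE 0.36, adjusted p = 0.00182), from 4.47 and 1.85, which share their direction. Dlk1 had 1.38 (SE 0.39, adjusted p = 0.0325), from 0.09 and -1.28, with low levels on all MEF arrays. Dlk1 entered that fit only through the arrays of 10T1/2 cells, and its KO effect lies between levels below the array medians. The remaining 4 genes did not pass, among them Plagl1 (2.10, SE 0.91, adjusted p = 0.123) with 4.75 and 2.65. KO and WT MEFs are separate lines, while the knockdown was made within 1 line, and line and treatment kind cannot be told apart here.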

How the results depend on the processing

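The KO comparison called 7 of these genes, and from 4 to 6 when the arrays of 1 serum time were left out, where the calls of Igf2r, Ndn and Igf2 were lost in at least 1 run. Those of Igf2r and Ndn were also lost without a term for serum time. Peg3, Mest, Grb10 and Plagl1 kept call and direction under every tested alternative of that comparison. Over all genes the KO count of 5018 became 2398 to 4891 without 1 serum time, 2857 without the serum term and 8380 with every probe set tested. At 30 min of serum the count of 30 genes became 59 with an intensity trend and 46 over all probe sets. For MAL, 0 of these genes became 2 under quantile normalization, the trend or the fit over all 10 arrays, and 8 genes overall became 2014, 542 and 2236, or 0 without the filter and over all probe sets. For the knockdown, 0 became 4, 2 and 4 in the same order, and 0 genes overall became 2472, 599 and 2658. Both counts stayed at 0 without the filter and over all probe sets. Prior degrees of freedom there were 14.51 after quantile normalization and 3.83 as deposited, and the cause was not tested. For 10T1/2 cells against WT MEFs, 8159 genes became 15177 over all probe sets. Quantile normalization moved the median coefficient of all genes in that comparison to 0.30, against 0.18 as deposited, and turned Peg3 to 0.04, against -0.21, with no call in either case. It also raised the calls among these genes from 4 to 5, since Cdkn1c was then tested and called (0.69, SE 0.22, adjusted p = 0.0225 by limma). Leaving out an array of 10T1/2 cells leaves no residual degree of freedom and was not run. The KO and WT arrays are paired by serum time in the main model, and the fit without the serum term is the unpaired one. A block by replicate number could not be set, since the labels give none. Levels near or below the array medians have no known relation to background.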

Other observations

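Genes that set or keep imprints and DNA methylation were listed as well. In KO against WT MEFs, 2 of 19 were higher and 1 lower (15.8%, against 42.1% of all genes tested). Tet1, an enzyme that oxidises methylated cytosine, was 2.35 higher in KO (SE 0.28, adjusted p = 0.0013 by limma), with 7.14, 6.99 and 5.48 in KO MEFs over the serum times, against 4.61, 3.97 and 3.97 in WT MEFs. Zfp57, a zinc finger gene that protects imprints in the early embryo, was 0.79 higher (SE 0.12, adjusted p = 0.00386), and Eed, a Polycomb gene, was lower (-0.49, SE 0.13, adjusted p = 0.0232). The maintenance methyltransferase gene Dnmt1 read 6.99, 7.03 and 7.35 in KO MEFs, against 7.10, 7.44 and 6.55 in WT MEFs, so the genotypes overlapped. In 10T1/2 cells against WT MEFs 7 of 20 were higher and 9 lower (80%, against 62.6% of all genes). Uhrf1, the partner of Dnmt1 at newly copied DNA, was 4.21 higher (SE 0.33, adjusted p = 3.89e-05), Dnmt1 2.07 (SE 0.32, adjusted p = 0.00088) and Ehmt2 1.21 (adjusted p = 0.00205). Tet2, Zfp445 and Smchd1 were lower, with coefficients of -3.15, -2.20 and -2.19 (adjusted p = 0.000354, 0.00119 and 0.00143). By limma at an adjusted p under 0.05, serum called 0 of 19 at 30 min and 0 of 19 at 90 min, against 0.251% and 13.5% of all genes. MAL and the knockdown called 0 of 20, against 0.0643% and 0%.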
